A study of Mus musculus with 4 samples.

Results

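The nucleoplasmin family of histone chaperones has 3 mouse genes, Npm1, Npm2 and Npm3, and all 3 were found by symbol among the 46406 rows of the deposited table. Histone chaperones bind histones away from DNA and hand them over when nucleosomes are built or taken apart. Nucleoplasmin was isolated from frog eggs, where it stores histones H2A and H2B and exchanges the basic proteins of sperm chromatin for histones after fertilization. In the mouse, Npm2 is the oocyte member and acts on sperm and oocyte chromatin. Npm1, or nucleophosmin, is an abundant nucleolar protein that works in ribosome assembly and centrosome duplication, and Npm3 is a smaller relative that binds Npm1.

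The family was picked by the read counts of Npm3 in these libraries, with reads only under Zscan4 overexpression, and Npm1 and Npm2 were taken as its relatives. The contrast between the groups is therefore described for the 3 genes without a test.

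The libraries were made by ATAC-seq, in which the Tn5 transposase cuts and tags open DNA, so that more reads come from accessible chromatin. The cells were J1 mouse embryonic stem cells, grown without feeder cells and at the same labelled passage, PN+8, in both groups. The control group was 2 wild-type libraries, and the other group was 2 libraries from the same line overexpressing Zscan4 (Zscan4 OE), a zinc finger protein of 2-cell embryos and of rare embryonic stem cells. The sources used here do not give which Zscan4 copy was expressed, from which promoter, or whether the lines were clonal and the replicates separate cultures. The p-values thus measure only how these libraries spread, which may be technical. The series title links Zscan4 to degradation of co-repressors and to open chromatin, and the comparison asks which genes were more or less accessible.

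Controls 1 and 2 had 1061428 and 2903602 reads in total, against 3605774 and 4899494 for Zscan4 OE 1 and 2. Reads on gene features made up 12.4% and 9.38% of the control totals and 12.8% and 9.93% of the Zscan4 OE totals. Each of the 14 pluripotency markers had reads, and so did each of 12 fibroblast markers, at mean levels of 1.89, 1.23, 2.83 and 1.67 RPKM against 0.989, 0.977, 1.14 and 0.836 in the 4 libraries in that order. The oocyte and maternal-effect genes listed below averaged 1.29, 1.03, 1.44 and 0.927 RPKM, and the histone chaperones 1.70, 1.07, 1.92 and 1.28. Both lists were above the fibroblast markers in each library, so the gap is not particular to pluripotency markers. Exon accessibility is not expression, so these levels differ by degree and do not check the cell type as RNA would. In bulk chromatin a gene that opened in some cells and one that opened a little in all cells cannot be told apart.

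The results turn on Npm3, a gene of 1832 bp on chromosome 19 (45747734 to 45749565, GRCm38). Its RefSeq promoter window is shown because so short a gene keeps most of its exons close to its start. The window runs from 250 bases before to 50 bases after the start, on the minus strand at chr19:45749516-45749815 (GRCm38.p6), and the capitals mark the GC box GGGCGG that Sp-family factors can bind.
Npm3 promoter: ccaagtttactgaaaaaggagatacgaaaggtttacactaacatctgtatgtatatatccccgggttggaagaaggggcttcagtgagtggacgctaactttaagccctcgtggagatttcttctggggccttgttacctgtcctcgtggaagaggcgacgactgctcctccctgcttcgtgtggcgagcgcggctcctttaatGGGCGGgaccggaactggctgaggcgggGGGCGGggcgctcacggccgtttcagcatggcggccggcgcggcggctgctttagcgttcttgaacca
The window held 2 GC boxes, starting 46 and 18 bases before the start, and 35.7% of the 32851 RefSeq windows of the same length held at least 1 on either strand. It held 24 CpG dinucleotides, 19 of them in its last 150 bases, against a median of 7 per window, and its GC content was 57.7% against a median of 52.7%. The letters CCAAT, present in 37.4% of the windows, were found on neither strand. The same held for TATAAA, the TATA box letters of 13.6% of the windows. It held too for the E-box letters CACGTG, present in 7.15%. The table of promoters held a window for 1 of the 3 members, so Npm1 and Npm2 are not shown.

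Npm3 had no reads in either control and had reads in both Zscan4 OE libraries. Controls 1 and 2 held 0 and 0 of its reads, and the first and second overexpressing libraries held 9 and 15, on a feature of 1187 bp. As RPKM, the reads per kilobase of feature and per 1000000 reads of the library, the Zscan4 OE levels were 2.10 (exact Poisson 95% interval 0.962 to 3.99) and 2.58 (1.44 to 4.25). Their mean was 2.34 ± 0.337 (SD, n = 2), and the groups did not overlap.

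The depth of the controls limits what their zeros can show. A count of 0 allows up to 3 reads, which is 2.38 RPKM in control 1 and 0.870 in control 2. The limit of control 1 was above the Zscan4 OE 1 level, and that of control 2 was below both Zscan4 OE levels. The exact Poisson 95% intervals used for the other levels reach higher at 0 reads, to 2.93 RPKM in control 1 and 1.07 in control 2. The first is above both Zscan4 OE levels, and the second is above the lower limit of Zscan4 OE 1, 0.962. The bounds below use the limit of 3 reads and would be smaller with those intervals. At the pooled Zscan4 OE rate, 24 reads in 8505268 or 2.82 reads per 1000000, 2.995 reads would fall in control 1 and 8.19 in control 2. Against a limit of 3 reads over both controls together, the pooled Zscan4 OE rate as measured gave a bound of 3.73-fold for Npm3. With that rate at its own lower limit, 1.81 reads per 1000000, the ratio to the same limit was 2.39. The bound of 3.73 was 2.73 against control 2 alone and 0.998 against control 1 alone, so it rested on control 2. These intervals and limits cover counting error only, since reads without molecular identifiers are not independent molecules. They do not cover the picking of Npm3 by its 0 reads in both controls. The bounds thus describe its counts and may be too high for its true ratio.

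Few features showed reads only with Zscan4 OE at this depth. Among 19012 rows with 20 reads or more, 13 had no read in either control and at least 1 in each Zscan4 OE library, 0.0684% of them, and 12 of the 13 were among the 3968 rows with 20 to 29 reads, 0.302% of those. No row with 20 reads or more had reads only in the controls (0.0%). The controls held 3965030 of the reads, fewer than the Zscan4 OE libraries, so the 2 directions were not equally likely to be seen. Npm3, with 24 reads, was 1 of 4 among the 13 with at least that many, and 7 of the 13 were protein-coding in RefSeq. These shares are the background of the pattern for which Npm3 was chosen, and nothing is read from them about Npm3.

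The rows most like Npm3 were those of the same kind. The measure favours this, since it uses the same 4 libraries by which Npm3 was picked. By Euclidean distance of log2(RPKM + 0.1) over the 4 libraries, among 18979 other rows with 20 reads or more, the closest 3 were Calm5, a calmodulin-like gene (distance 0.976), Ugt2a1, a glucuronosyltransferase of the olfactory lining (0.980), and Acp4, an acid phosphatase (1.347). Each had 0 reads in both controls, and the Zscan4 OE libraries had 6 and 14, 11 and 21, and 20 and 9 reads.

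**Figure D1:**
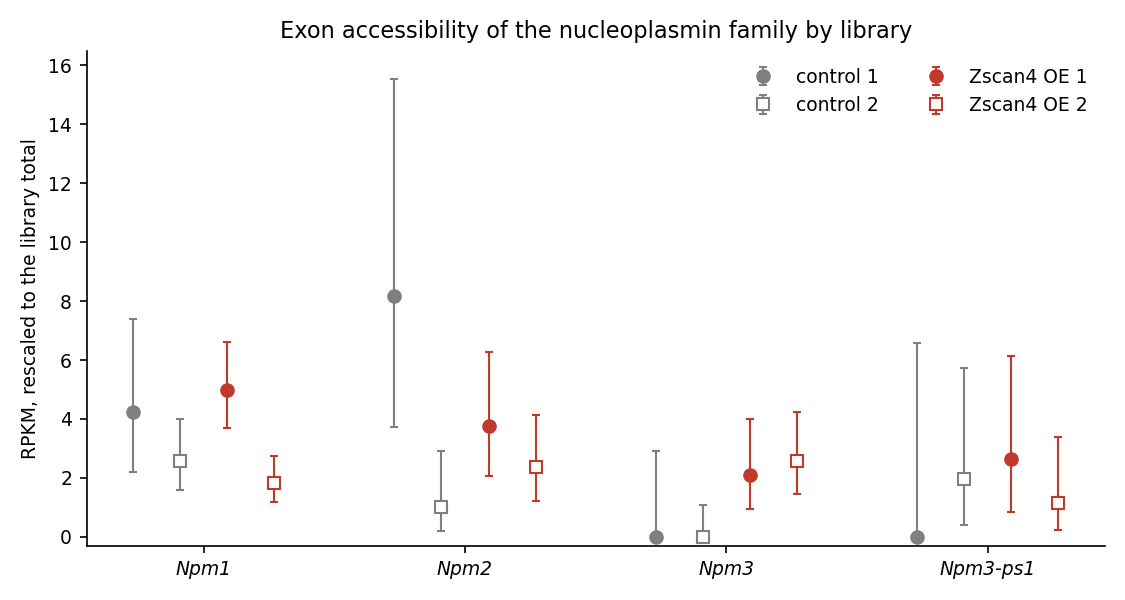
Exon accessibility of Npm1, Npm2, Npm3 and the pseudogene Npm3-ps1 in each library, as RPKM rescaled to the library's own total; points are single libraries and bars are exact Poisson 95% intervals, which cover counting error only. Npm3 is at 0 in both controls and at 2.10 and 2.58 in Zscan4 OE, while the groups overlap for the other 3 rows.

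Npm3-ps1, a transcribed pseudogene of Npm3 on chromosome 6 (85076182 to 85077126), did not share the pattern. It had 0 reads in control 1, 3 in control 2, 5 in Zscan4 OE 1 and 3 in Zscan4 OE 2, or 0, 1.96, 2.63 and 1.16 RPKM. Control 2 lay between the Zscan4 OE libraries, so the groups overlapped, and the log2 difference of 2.03 (SE 1.58) did not pass (limma adjusted p = 0.869). Pseudogene and parent share sequence, and the number of reads set aside or split between such copies by the authors' counting is unknown, so both rows are uncertain to that extent.

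Npm1, the nucleolar member on chromosome 11 (33152498 to 33164142), was open at the same mean level in both groups. The controls held 12 and 20 of its reads and the overexpressing libraries 48 and 24, on a feature of 2665 bp. The levels were 4.24 RPKM in control 1 (95% interval 2.19 to 7.41), 2.58 in control 2 (1.58 to 3.99), 4.995 in Zscan4 OE 1 (3.68 to 6.62) and 1.84 in Zscan4 OE 2 (1.18 to 2.73). The first library of each group was high and the second low, as was the share of reads on features given above. The means were 3.41 ± 1.17 and 3.42 ± 2.23 (SD, n = 2), a log2 difference of −0.12 against a spread between replicates of 0.779 on the same scale. The part of the feature share in this order was not tested.

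Npm1 was among the more accessible genes in each library. Its level lay at the 94.2, 95.5, 96.1 and 87.9 percentile of 19011 tested rows with 20 reads or more. The 3 rows most like it were U2af1l4, a splicing factor gene (distance 0.123), Fntb, a farnesyltransferase subunit (0.167), and Ppp2r3d, a phosphatase regulatory subunit (0.206). Each of them was higher in the first library of a group than in the second, which follows from choosing rows by likeness over these libraries. U2af1l4 was at 4.55 RPKM against 2.496 among controls and at 5.19 against 1.85 among overexpressing libraries.

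Npm2, the oocyte member on chromosome 14 (70647296 to 70661802), had reads in all 4 libraries and disagreed between the controls. The controls held 9 and 3 of its reads and the overexpressing libraries 14 and 12, on a feature of 1036 bp. The levels were 8.18 RPKM in control 1 (95% interval 3.74 to 15.5), 0.997 in control 2 (0.206 to 2.91), 3.75 in Zscan4 OE 1 (2.05 to 6.29) and 2.36 in Zscan4 OE 2 (1.22 to 4.13). The highest and the lowest of the 4 levels were both controls, 8.21-fold apart, and their intervals did not overlap. Both Zscan4 OE libraries lay between them. The mean was 4.59 ± 5.08 for controls against 3.06 ± 0.978 under overexpression (SD, n = 2).

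The direction for Npm2 depended on 1 control. The log2 difference was 0.03 with all libraries, 1.49 without control 1 and −1.43 without control 2. Control 1, the shallowest library, held 9 reads of the gene. The rows most like Npm2 were the long non-coding genes Gm12925 (distance 0.312) and Gm13267 (0.359) and the histone H3 gene Hist2h3c2 (0.448), which had 8 and 3, 7 and 2, and 7 and 3 reads in controls 1 and 2.

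Between the members the order of the levels per length was not set in Zscan4 OE. In controls only the place of Npm3, the lowest at 0, was set, and that by the way it was picked. In controls the means were 4.59 RPKM for Npm2, 3.41 for Npm1 and 0 for Npm3, and the difference between Npm2 and Npm1 was smaller than the SD of Npm2. In control 2 the order of Npm2 and Npm1 was turned. In Zscan4 OE the means were 3.42 for Npm1, 3.06 for Npm2 and 2.34 ± 0.337 for Npm3, each apart by less than the SD of the higher one, and in Zscan4 OE 2 Npm3 was the highest of the 3. Summed over the family, the 4 libraries in the order above had 19.8, 7.92, 19.7 and 10.4 reads per 1000000, and the groups overlapped. Npm3 made up 0% of the family's reads in both controls, 12.7% in Zscan4 OE 1 and 29.4% in Zscan4 OE 2.

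The feature behind each value differed in how much of the gene it covered. It was 64.8% of the annotated span for Npm3, 22.9% for Npm1 and 7.14% for Npm2, whose spans are 1832, 11645 and 14507 bp. The values were thus read as exon values, without introns and with little of the promoters.

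The scale of the deposited values decided what Npm1 showed. As deposited, Npm1 stood at 0.919 and 2.99 for controls against 6.20 and 3.74 under overexpression, and the groups did not overlap. Each of those values had been divided by 1 of 8 rotating totals, and which total belongs to which library was inferred from the evenness of the feature shares. After rescaling to the totals so placed, Npm1 overlapped between groups. With the next most even placement its log2 difference was 1.31, close to the deposited one, and the median of all rows was 1.5. The result for Npm1 thus rests on the placement, which moved the whole table and not Npm1 in particular. The log2 difference of Npm1 moved from 1.47 as deposited to −0.12, while the median of all rows moved from 1.40 to 0.28. That of Npm2 moved from 1.13 to 0.03, by less than its spread between replicates of 1.493. As deposited, Npm2 stood at 2.99 and 0.803 for controls against 2.76 and 4.61, so its groups overlapped on either scale. For Npm3 the deposited values were 0, 0, 7.14 and 4.35, and its zeros do not depend on any total.

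**Figure D2:**
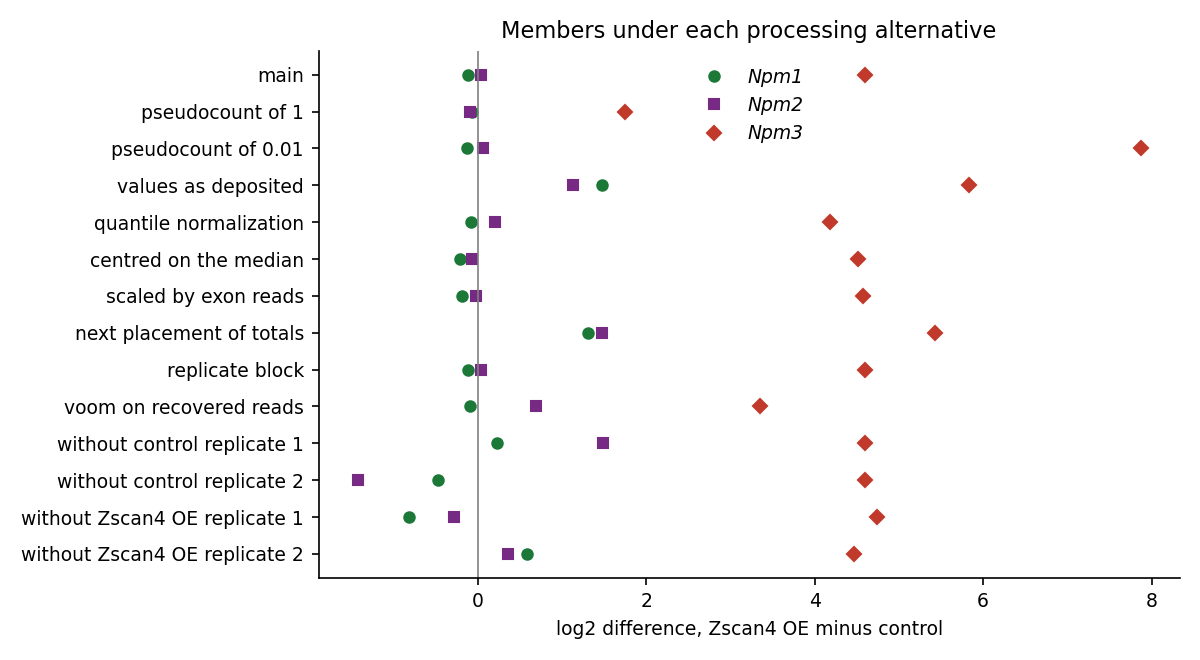
Log2 difference (Zscan4 OE minus control) of Npm1, Npm2 and Npm3, 1 point per gene, for the values as reported (main) and each alternative. Npm3 was picked with both controls at 0, so its direction is fixed. Its size, 1.74 or more, follows the pseudocount. Npm1 and Npm2 lie on either side of 0 depending on the libraries kept, and Npm1 also on the totals used.

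Each member lies beside a gene of 1 fibroblast growth factor subfamily, signals of early embryo patterning. Fgf8 ends 4793 bp from Npm3, Fgf17 5028 bp from Npm2 and Fgf18 5098 bp from Npm1. Fgf8, which acts in gastrulation and brain patterning, held 2 and 3 reads among controls against 1 and 2 under overexpression, or 2.79, 1.53, 0.411 and 0.605 RPKM. None of these counts exceeded the limit of 3 reads that a count of 0 allows. The exact Poisson 95% intervals of controls 1 and 2 were 0.338 to 10.1 and 0.316 to 4.47 RPKM. They overlapped those of Zscan4 OE 1 and 2, 0.0104 to 2.29 and 0.0732 to 2.18. The mean levels of Fgf8 were 2.16 ± 0.891 and 0.508 ± 0.137 (SD, n = 2). The levels of the groups did not overlap, lower with overexpression as in 10.1% of all tested rows. Fgf18, a growth factor of bone and lung, had group means of 2.06 ± 0.453 and 0.811 ± 0.174 RPKM (SD, n = 2), based on 3, 6, 4 and 4 reads, again without overlap. Fgf17, a growth factor of the midbrain and hindbrain, had 2.29 ± 1.501 and 1.67 ± 0.655 (SD, n = 2), based on 6, 6, 13 and 10 reads, and its groups overlapped.

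None of these differences passed the test. The 3 growth factor genes had log2 differences of −1.86, −1.24 and −0.32 for Fgf8, Fgf18 and Fgf17, and of the 6 neighbours 0 passed over all rows (smallest limma adjusted p = 0.584). On the other side, Mgea5, the O-GlcNAcase gene 690 bp from Npm3, had 1.31 and 0.480 RPKM among controls against 1.16 and 0.772 under overexpression, so the gene next to the start of Npm3 overlapped between groups. Xpo7, a nuclear transport receptor 324 bp from Npm2, was at 0.759 ± 0.0483 and 0.961 ± 0.251, and Tlx3, a neuronal homeobox gene 36610 bp from Npm1, at 3.13 ± 2.52 and 1.39 ± 0.842 (SD, n = 2).

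**Figure D3:**
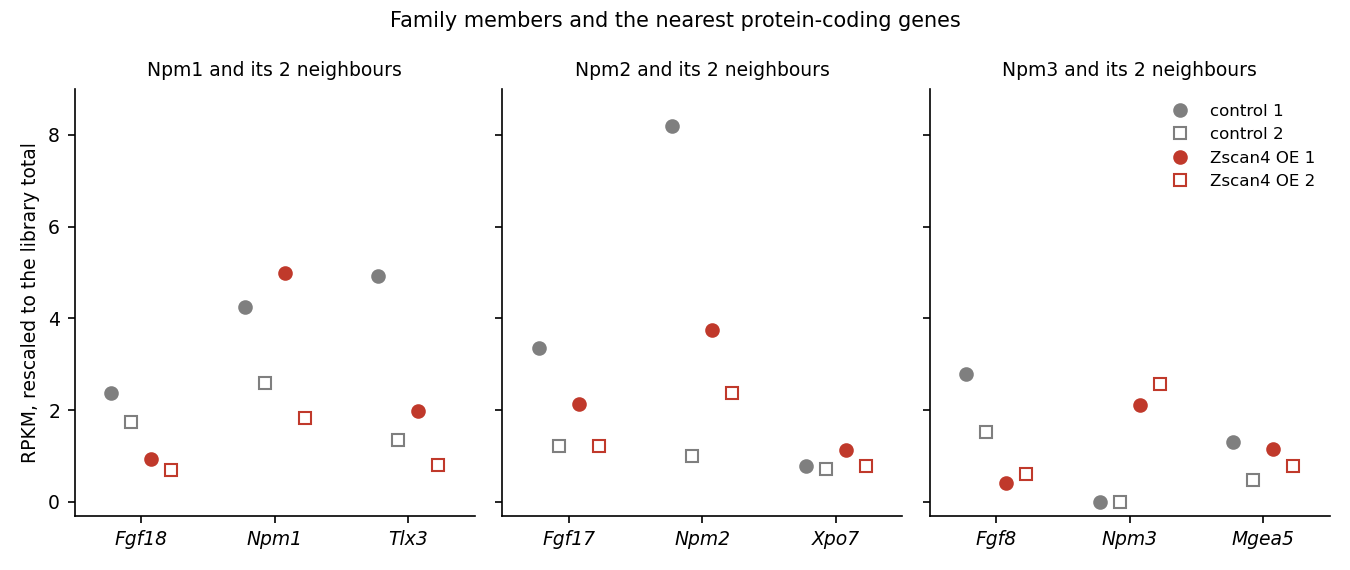
RPKM, rescaled to the library's own total, of each member (middle of its panel) and the nearest protein-coding gene on either side, 1 point per library. Fgf8 is lower in Zscan4 OE, from 1 to 3 reads per library, no more than the limit of 3 reads for a count of 0. Npm3, picked by its zeros in the controls, is higher, from 0 to 15 reads per library. Mgea5 overlaps between groups.

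Across the whole table limma called no row, and at this depth and with 2 libraries a group the fit over all rows had little power to call any, so the lack of calls below does not show that genes did not differ. Of 42989 tested rows 0 rose and 0 fell with overexpression at a Benjamini-Hochberg adjusted p under 0.05, 0.0% in each direction, with 0.156 as the smallest adjusted p. Without adjustment, 2189 higher and 573 lower rows had a p under 0.05, and voom, run on rows with 20 reads or more, called 0 higher and 1 lower. Among rows with 20 reads or more limma called 4 higher and 1 lower. Without Zscan4 OE 1 it called 4340 higher and 9 lower, and without Zscan4 OE 2 it called 3860 and 2, fits in which the remaining library was alone in its group and assumed to vary like the controls.

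Other histone chaperone genes gave no call. All 38 genes of the list were tested, the log2 difference was positive in 28 and negative in 10, and 0 passed in either direction. Their median log2 difference was 0.33, against 0.28 over all tested rows. The groups did not overlap in 10 of them (26.3%), 9 higher and 1 lower in Zscan4 OE, against 29.7% of all tested rows, 19.6% higher and 10.1% lower. Each of the 38 had a read in at least 1 control. Summed over the list, reads per 1000000 were 297 and 206 for controls against 345 and 245 under overexpression, and the groups overlapped. The median relative to all rows turned to −0.25 without control 2 and −0.13 without Zscan4 OE 1.

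Nap1l1, Set, Ssrp1 and Supt16, the chosen chaperones that, like the nucleoplasmins, handle H2A and H2B, overlapped between groups. Nap1l1, a nucleosome assembly protein, averaged 1.04 ± 0.397 RPKM among controls against 1.19 ± 0.356 under overexpression (SD, n = 2). Set, its relative, was at 2.29 ± 0.365 and 2.47 ± 0.653. The FACT subunits, which clear H2A and H2B before polymerases, were at 1.26 ± 0.353 and 2.37 ± 1.27 for Ssrp1 and at 1.24 ± 0.104 and 1.33 ± 0.615 for Supt16.

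The 5 chosen chaperones of H3 and H4, Asf1a, Nasp, Chaf1a, Hira and Daxx, overlapped as well. Asf1a, which passes H3 and H4 to other chaperones, was at 1.12 ± 0.246 and 1.44 ± 0.446 RPKM (SD, n = 2), and Nasp, which holds a soluble H3 and H4 pool, at 1.31 ± 0.625 and 1.45 ± 0.401. Chaf1a, of the replication-coupled assembly factor CAF-1, was at 1.28 ± 0.197 and 1.98 ± 0.878. Hira and Daxx, which deposit the H3.3 variant, were at 0.996 ± 0.974 and 1.04 ± 0.196 and at 2.01 ± 1.08 and 1.98 ± 0.916. The list's largest statistics belonged to Anp32b, Rbbp4 and Vps72. Their log2 differences were 1.93 (from 1, 2, 20 and 11 reads), 1.33 (4, 6, 41 and 30) and 1.30 (1, 6, 16 and 18). The groups did not overlap in any of them, and they belong to the 9 genes of the list that were higher without overlap. The smallest adjusted p was 0.658 (limma).

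Genes that work with Npm1 in the nucleolus gave no call either. Among 25 nucleolar and ribosome biogenesis genes the difference was positive in 21 and negative in 4, 0 passed, and the median was 0.43. The groups did not overlap in 8 of the 25 (32.0%), 7 higher and 1 lower, against 29.7% of all tested rows, 19.6% higher and 10.1% lower. Gar1, a protein of pseudouridylating particles, had 1, 3, 12 and 20 reads, or 0.576 ± 0.0376 and 2.16 ± 0.311 RPKM (SD, n = 2; limma adjusted p = 0.486). Gnl3, a nucleolar GTPase, was at 0.619 ± 0.0023 and 1.63 ± 0.269, and Nop58, a core protein of methylating particles, at 1.08 ± 0.21 and 2.10 ± 0.159 (SD, n = 2).

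Genes of the oocyte, where Npm2 is made, gave no call. Of 22 listed oocyte and maternal-effect genes 21 were in the table and 20 were tested, 12 with a positive and 8 with a negative difference and a median of 0.13. The groups did not overlap in 5 of the 20 (25.0%), 3 higher and 2 lower, against the same 29.7%, and 0 passed. Summed over the list, reads per 1000000 were 46.2 and 39.6 for controls against 50.5 and 36.5 under overexpression, and the groups overlapped. Zp2, a zona pellucida gene, had 4, 6, 1 and 9 reads (log2 difference −1.51). Nlrp14, a maternal-effect gene, had 1, 2, 10 and 14 (1.45). Figla, an oocyte transcription factor, had 0, 0, 1 and 1 (1.95).

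No member of the marker lists passed. The 14 pluripotency markers had a median log2 difference of 0.29, against 0.28 over all tested rows, with 10 positive and 4 negative. Reads are not scaled to depth, so the log2 difference is given beside them. Tdgf1, a Nodal co-receptor, had 2, 11, 25 and 30 reads (1.20). Dppa4 had 1, 3, 22 and 9 (1.63), and Dppa5a 0, 3, 12 and 10 (3.36). The 12 fibroblast markers had a median of −0.31, with 5 positive and 7 negative, and summed to 87.6 and 67.5 reads per 1000000 for controls against 92.1 and 66.3 under overexpression, with overlapping groups. Col3a1 had 4, 12, 9 and 10 reads (log2 difference −0.73) and Pdgfra 13, 32, 24 and 47 (−0.49), both lower in Zscan4 OE without overlap of the groups. S100a4 had 0, 1, 2 and 2 (2.27), higher without overlap. The groups did not overlap in 33.3% of the 12 fibroblast markers, 1 higher and 3 lower. They did not overlap in 35.7% of the 14 pluripotency markers, 5 higher and 0 lower, with Tdgf1, Dppa4 and Dppa5a among them. Of all tested rows 29.7% did not overlap, 19.6% higher and 10.1% lower. The part of fibroblast chromatin in the members' values was not tested.

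**Figure D4:**
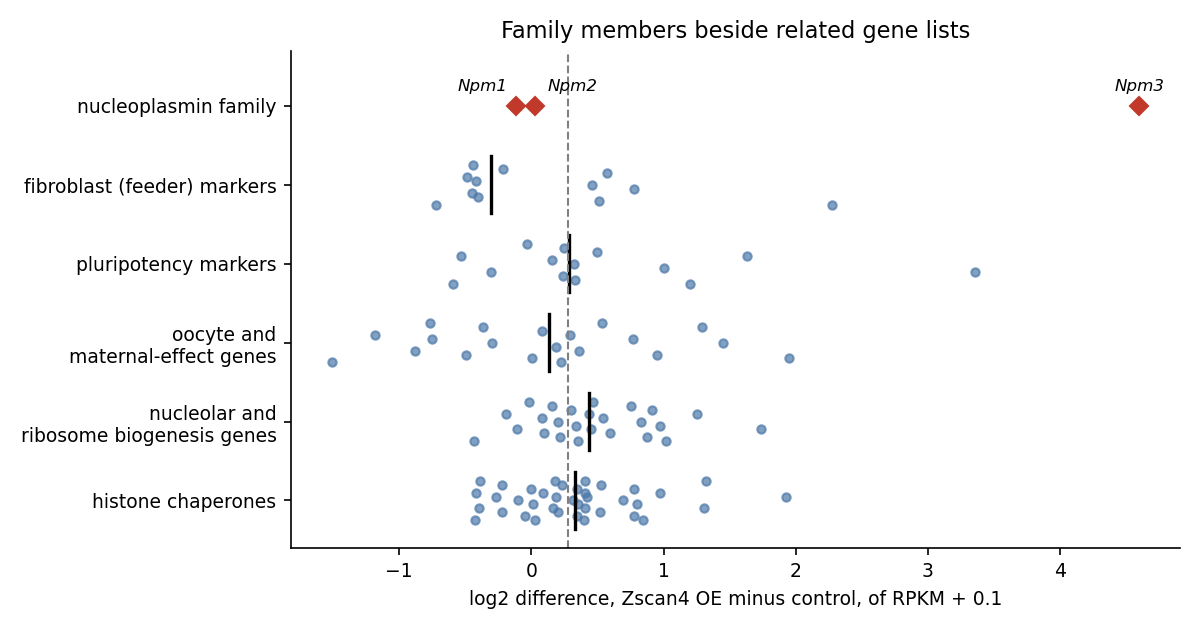
Log2 differences (Zscan4 OE minus control) of log2(RPKM + 0.1) for the tested genes of 5 lists (blue, black line at the list's median) and the 3 family members (red); the dashed line is the median of all tested rows, 0.28. Npm1 and Npm2 lie within the spread of the lists; the place of Npm3 depends on the pseudocount because both controls are at 0, and no gene shown in blue passed the test.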

How the data were processed

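The deposited table gives 1 RPKM value per gene and library, a unit named per the labels. Per the submitters' processing notes the authors used Trimmomatic, Bowtie2 and featureCounts with build mm10. The sources used here give no versions, read filters, duplicate removal, Tn5 shift or annotation. RPKM values proved to be whole reads over feature length and over 1 of 8 totals that rotate from row to row. Short RNA genes with an annotated length (2398) gave the totals. For each of the 38361 rows with several nonzero values, 1 rotation and no other made reads and length whole, to the printed precision of 9 decimals or 10 digits. Recovered reads and lengths are the smallest that give the values. For Npm1 and Npm2 a common multiple would also lie within the gene's span. In a simulated table the length was right in 96.7% of rows with 4 values and 20 reads or more. Totals were placed on libraries in rotation order so that feature shares were most alike (ratio 1.36, next 4.17), and the values were rescaled to these totals.

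Because the unit differed from the plan, the planned test was run on the rescaled values. It was limma 3.58.1 (R 4.3.3) on log2(RPKM + 0.1) with eBayes trend, two-sided, for rows with a mean of at least 0.1 RPKM, Benjamini-Hochberg adjusted over all tested rows, threshold 0.05. Differences are in these log2 units, which understate low genes. The fit was tested on simulated data, where over all rows it called none of the strongly changed genes, and with the filter of 20 reads or more it called most of them. Genes named were the members, their pseudogene, nearest protein-coding neighbours, closest rows by distance, 9 chosen chaperones and the 3 largest statistics of each list. The members and lists were chosen with earlier results of these data known. RefSeq sequences and coordinates are GRCm38.p6, to which 33703 symbols (72.6%) matched. Depth sets a limit of 3 reads for a count of 0. Alternatives covered pseudocount, filter, scaling, totals, voom, replicate block and leaving out each library.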

Additional observations from a re-analysis of the deposited data

How the results depend on the processing

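Of the 15 alternatives, those that changed the reported values are given here. The log2 difference of Npm1 was 1.47 as deposited and 1.31 with the next placement of totals, both away from −0.12. It ran from −0.82 to 0.58 when 1 library was left out, and that of Npm2 from −1.43 to 1.49. The log2 difference of Npm3, 4.60 as reported, was 1.74 with a pseudocount of 1, 7.87 with 0.01, 5.83 as deposited, 4.18 with quantile normalization, 5.43 with the next placement and 3.35 with voom, and 4.46 to 4.74 when 1 library was left out. Its direction could not change in any of them, since Npm3 was picked with 0 reads in both controls. The lower bound of its ratio, which rests on the same 0 reads, ran from 0.998 to 4.046 when 1 library was left out. This check was added after seeing the data. The count of called rows, 0 as reported, was 5 (4 higher, 1 lower) among rows with 20 reads or more and 1 (lower) with voom. It ran from 0 to 4349 when 1 library was left out, with 4340 higher and 9 lower when the first overexpressing library was left out and 3860 and 2 when the second was. A library left alone in its group is assumed to vary like the other group. No chaperone gene was called under any alternative. Their median relative to all rows, 0.05 as reported, ran from −0.25 to 0.21 when 1 library was left out. Among 31 other named genes, 67 of 454 values moved by more than the spread between replicates, 35 changed sign, and 1, of Figla without Zscan4 OE 2, passed the test, on 0, 0 and 1 reads. With the replicate number as a block 0 rows were called. Deviations of same-numbered libraries correlated at 0.129 over 19012 rows, and 2 pairs sharing only a number are not treated as paired. With 0 to 48 reads per member and library, counting error alone limits every level given.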

Other observations

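Besides Npm3, Calm5, Ugt2a1 and Acp4, the protein-coding rows with 20 reads or more and reads only with Zscan4 OE included Nlrp4e and Zfp936, named after their values were seen. Nlrp4e, an oocyte gene of the NLRP family on chromosome 7, had 13 and 15 reads in Zscan4 OE 1 and 2. Zfp936, a zinc finger gene on chromosome 7, had 9 and 11.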
